A study of Saccharomyces cerevisiae with 40 samples.

Results

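The AAD genes of Saccharomyces cerevisiae examined here are 6 paralogues, AAD3, AAD4, AAD6, AAD10, AAD14 and AAD15, and all 6 carried probes on both array types used in this series. They were chosen by name and not by a threshold on their values, but with earlier results of these data known. They make up 6 of the 5540 genes named on the in-house cDNA arrays (1 probe each). On the Agilent arrays they are 6 of the 5598 named genes (9 probes, a pair for AAD4, AAD6 and AAD10 and a single probe for AAD3, AAD14 and AAD15). Probes of a gene were averaged.

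The parent strain was BY4741, a haploid laboratory strain of mating type a that carries deletions in his3, leu2, met15 and ura3; all deletion strains and all controls shared this background, and all cultures grew in synthetic complete medium at 30 °C. Sodium arsenite (NaAsO2, AsIII) was added to one part of a split culture and the other part served as its untreated control. On the cDNA arrays the parent was exposed to 100 µM AsIII for 30 min, 2 h or 4 h, or to 1 mM AsIII for 30 min, with 4 arrays for each culture pair, 2 in each dye orientation. There were 2 culture pairs at 1 mM and 1 at each of the other conditions. On the Agilent arrays the parent and strains lacking Yap1, Cad1 (Yap2), Rpn4 or Arr1 (Yap8), labelled Yap1-Null, Cad1-Null, Rpn4-Null and Arr1-Null, were exposed to 100 µM AsIII for 2 h, and each untreated deletion strain was also compared with the untreated parent. Each Agilent comparison was a dye-swap pair of 2 arrays, and the parent with AsIII had 2 such pairs. The deletion strains came from a commercial collection and each is 1 line, so a second change in a line cannot be told apart from its deletion.

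Aryl-alcohol dehydrogenases belong to the aldo-keto reductase superfamily, whose members use NADPH to turn aldehydes and ketones into alcohols. The yeast AAD genes were named for their likeness to an enzyme of the white-rot fungus Phanerochaete chrysosporium, which reduces aryl aldehydes that arise while it breaks down lignin, and the activity of most yeast members is inferred from that likeness. Most of them lie close to chromosome ends, in blocks of duplicated sequence. Yap1 is a bZIP transcription factor that gathers in the nucleus when its cysteines are modified by oxidants or metalloids and then switches on thioredoxin, glutathione and reductase genes; in S. cerevisiae AAD4 and AAD6 have been described as responding to thiol oxidants through it. Cad1 is its closest relative, Arr1 is the bZIP factor that switches on the arsenite exporter Arr3 and the arsenate reductase Arr2, and Rpn4 is the activator of proteasome genes.

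The members differ as gene models. In the RefSeq R64 annotation, used here for names, lengths and neighbours only, AAD14 (YNL331C) spans 1131 bp, AAD3 (YCR107W) 1092 bp and AAD4 (YDL243C) 990 bp. AAD10 (YJR155W) is shorter at 867 bp, and AAD15 (YOL165C) is the shortest, 432 bp. AAD6 (YFL056C) is listed there as a pseudogene of 1127 bp that also takes in the open reading frame YFL057C. A ratio at any of these probes may hold RNA of more than one member, since the probe sequences were not among the data used and how far each probe hybridizes with its paralogues was not tested.

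All values below are log2 ratios within an array, AsIII over untreated unless stated, so they give changes and not levels, and the members cannot be ranked by abundance. A gene was called changed at an adjusted p under 0.05 (limma, two-sided, Benjamini-Hochberg over all genes of the platform), with the arrays of a culture pair or dye-swap pair averaged into 1 replicate. Nothing in the labels says that the 2 parent dye-swap pairs came from separate cultures, so their spread may be technical. The spread behind every test came from 1 residual degree of freedom per gene plus the spread pooled over genes: at 1 condition per platform there were 2 replicates, and all other conditions are assumed to vary like it. On the Agilent arrays the pooled estimate took over wholly, so that every gene was tested against the same SD of 0.172, and the small p-values there reflect that SD and not a measured spread of the gene itself.

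On the cDNA arrays 1 mM AsIII for 30 min raised AAD6, AAD15, AAD14 and AAD3. These 4 of the 6 members were called higher, against 9.69% of all 5540 genes called higher and 7.09% called lower in this comparison. The median log2 ratio of the 6 members was 3.06, and that of all genes was 0.02.

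AAD6 gave log2 ratios of 3.55, 3.62, 4.91 and 4.64 on the 4 arrays of culture pair 1 and of 4.83, 4.88, 5.81 and 5.45 on those of pair 2. All 8 arrays lay far above 0, and the mean of the 2 pairs was 4.71 (SE 0.30, adjusted p = 0.00438 by limma), a 26.2-fold rise and the fourth highest ratio of all genes on this platform. AAD15 ranged from 3.12 to 3.91 on the arrays of pair 1 and from 4.62 to 5.11 on those of pair 2. The pairs did not overlap, yet every array was high, with a mean of 4.18 (SE 0.35, adjusted p = 0.00579), rank 14 of 5540. AAD14 was the steadiest, between 3.23 and 3.80 in pair 1 and between 3.79 and 4.74 in pair 2, with a mean of 3.80 (SE 0.23, adjusted p = 0.00438), rank 22. The rise of AAD3 was smaller, 2.33 (SE 0.23, adjusted p = 0.00664), from 1.44 to 2.69 in pair 1 and from 1.46 to 3.14 in pair 2.

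AAD10 and AAD4 did not pass the test at this dose. Counting each array as a replicate, which treats the arrays of 2 culture pairs as independent, AAD10 was called (adjusted p = 2.38e-04) and AAD4 was not (0.123). With the array number added as a block both were called (4.39e-04 and 0.0118). AAD10 gave 0.32, -0.39, 1.07 and 0.53 in culture pair 1 and 2.66, 3.37, 2.98 and 3.33 in pair 2. The 2 pairs thus stood apart by 2.70 log2 units, with no overlap between their arrays, and the mean of 1.73 (SE 0.62, adjusted p = 0.111) describes neither: it was 3.09 without pair 1 and 0.38 without pair 2. AAD4 gave 1.28, 1.45, -0.39 and -0.27 in pair 1 and 0.36, 1.05, 0.63 and 0.41 in pair 2, a mean of 0.57 (SE 0.20, adjusted p = 0.107). Its 4 arrays of pair 1 split by dye, both arrays with the treated RNA in Cy3 lying above 0 and both with it in Cy5 below.

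At 100 µM the same 4 members had the highest ratios of the family at each of the 3 times, though at 30 min AAD3 (1.32) and AAD10 (1.27) were level, and their largest ratios came at 2 h. After 30 min AAD6 gave 2.72, 2.84, 3.38 and 3.47 (mean 3.10, SE 0.43), AAD15 gave 2.18, 2.66, 2.69 and 2.42 (mean 2.49, SE 0.49), AAD14 had a mean of 1.55 (SE 0.33) and AAD3 one of 1.32 (SE 0.33), with all arrays of these 4 genes above 0. AAD10 read 2.27, 1.02, 0.71 and 1.07 (mean 1.27, SE 0.88). None of these passed the test, and neither did any other gene: 0 of 5540 genes, 0%, were called, with 146 genes at an unadjusted p under 0.05, the 4 members AAD6, AAD15, AAD14 and AAD3 among them. There was 1 culture pair at this time, and its arrays correlated between -0.053 and 0.528 over all genes. Counting each array as a replicate, which treats the arrays of 1 culture pair as independent, those 4 members passed, with adjusted p from 2.79e-06 for AAD6 to 0.00742 for AAD3.

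After 2 h at 100 µM, AAD6, AAD14, AAD15 and AAD3 were called higher, where 3.75% of all genes were, and none lower, where 2.18% were. AAD6 read 4.80, 4.90, 5.61 and 5.55, a mean of 5.22 (SE 0.43, adjusted p = 0.0154) or a 37.2-fold rise. The arrays of AAD14 were the tightest, at 4.13, 4.04, 3.91 and 4.05, with a mean of 4.03 (SE 0.33, adjusted p = 0.0154) and thus a 16.4-fold rise. AAD15 read 3.77, 3.46, 4.12 and 4.06 (mean 3.85, SE 0.49, adjusted p = 0.0281), and AAD3 2.05, 2.23, 2.37 and 2.25 (mean 2.22, SE 0.33, adjusted p = 0.0344). These 4 calls were lost when the arrays were scaled to the same spread, with adjusted p between 0.105 and 0.143, while the ratios stayed between 1.77 for AAD3 and 4.15 for AAD6. AAD10, which read -0.08, -0.36, 0.24 and 0.34, and AAD4, which read 1.23, 0.98, -1.46 and 0.51, were not called, at 0.04 (SE 0.88) and 0.32 (SE 0.28).

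By 4 h the ratios of AAD6, AAD14, AAD15 and AAD3 were lower than at 2 h, at 2.01, 1.77, 1.65 and 0.86, and still above 0 on each of their arrays. None was called, where 0.0542% of all genes were called higher. AAD10 read between -0.78 and -0.25 on its 4 arrays, and AAD4 read 0.16, 0.30, -2.26 and -1.46, split by dye once more. The difference between 4 h and 2 h was -3.20 for AAD6 (SE 0.61, adjusted p = 0.0795) and -2.27 for AAD14 (SE 0.46, adjusted p = 0.0898), and no gene of the platform, 0%, passed the test of that difference, of 2 h against 30 min or of 1 mM against 100 µM at 30 min; at an unadjusted p under 0.05 there were 1220, 860 and 790 genes. Counted array by array, 4 members passed in the first of these contrasts, with AAD6 at 8.48e-06, AAD14 at 1.31e-06, AAD15 at 9.13e-05 and AAD3 at 0.00472.

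**Figure D1:**
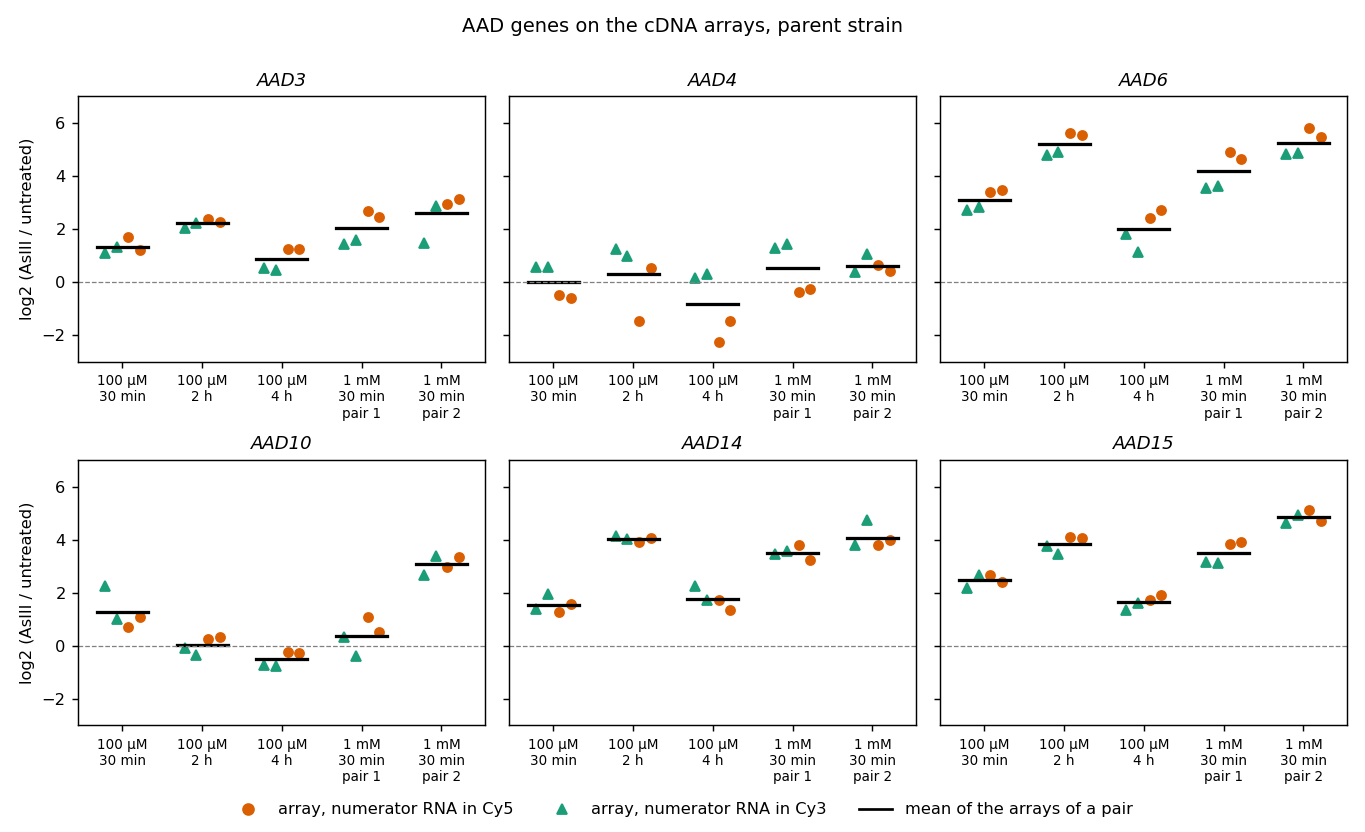
Log2 ratio of AsIII over untreated RNA (y axis) for each AAD gene on each cDNA array of the parent strain, by dose and time (x axis); circles are arrays with the AsIII RNA in Cy5, triangles those with it in Cy3, and bars the mean of a culture pair. AAD6, AAD14, AAD15 and AAD3 peak at 2 h among the 100 µM times. AAD10 differs between the 2 culture pairs at 1 mM (0.38 and 3.09). AAD4 has a higher mean with Cy3 in every culture pair, though its arrays overlap between the dyes in pair 2 at 1 mM.

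On the Agilent arrays the order of the family was different. In the parent with 100 µM AsIII for 2 h, AAD4 and AAD6 rose strongly, AAD3 and AAD15 slightly, AAD10 fell and AAD14 was not called. Thus 4 of the 6 members were called higher, against 34.7% of the 5598 genes, and 1 lower, against 42.7%, so the number of calls is no sign of a particular response. The median of the 6 members was 0.71, and that of all genes was -0.10.

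AAD4 gave 4.78 and 4.73 on the arrays of dye-swap pair 1 and 4.97 and 4.84 on those of pair 2. The 4 arrays were close together in both orientations, with a mean of 4.83 (SE 0.12, adjusted p = 4.18e-302), a 28.5-fold rise and rank 8 of 5598. Its 2 probes alone gave 4.95 and 4.72. AAD6 read 2.81 and 3.66 in pair 1 and 2.70 and 4.21 in pair 2, a mean of 3.34 (SE 0.12, adjusted p = 1.88e-154), a 10.2-fold rise and rank 38. AAD3 read 0.43 and 1.42, then 0.20 and 1.88, a mean of 0.98 (SE 0.12, adjusted p = 2.62e-15). In both genes the higher value of each pair was the array with the treated RNA in Cy3, and with each array as a replicate AAD3 was no longer called (adjusted p = 0.0923).

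AAD15 lay between 0.21 and 0.58 on the 4 arrays, with a mean of 0.44 (SE 0.12, adjusted p = 4.47e-04). AAD14 lay between -0.02 and 0.52 (mean 0.23, SE 0.12, adjusted p = 0.0708), and it passed once each array was a replicate and the array number a block (adjusted p = 0.00805). AAD10 was low on every array, at -1.28 and -1.93 in pair 1 and -0.98 and -0.83 in pair 2. Its mean of -1.26 (SE 0.12, adjusted p = 5.25e-24) was -1.61 in pair 1 and -0.90 in pair 2, an SD of 0.496 between the pairs that is larger than the common SD used in the test.

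The same strain, dose and time were thus measured on both array types, and the 2 gave different members as the responders. AAD4 read 0.32 on the cDNA arrays and 4.83 on the Agilent arrays. AAD14 read 4.03 and 0.23, AAD15 3.85 and 0.44, AAD3 2.22 and 0.98, and AAD10 0.04 and -1.26. AAD6 was high on both, at 5.22 and 3.34. The arrays of the 2 types did not overlap for any of the 6 members, which was so for 46.3% of the 5513 genes on both array types. Over those genes the difference between the platforms had a median size of 0.64 and reached 3 log2 units or more in 0.943% of genes, 52 in number, AAD4, AAD14 and AAD15 among them. Across those genes, which are not independent replicates, the ratios of the platforms correlated with r = 0.382. The platforms differed in probe type (cDNA spots against 60-mer oligonucleotides), in RNA (poly(A) against total RNA), in extraction and in the cultures, which cannot be told apart, and hybridization with paralogues was not tested.

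**Figure D2:**
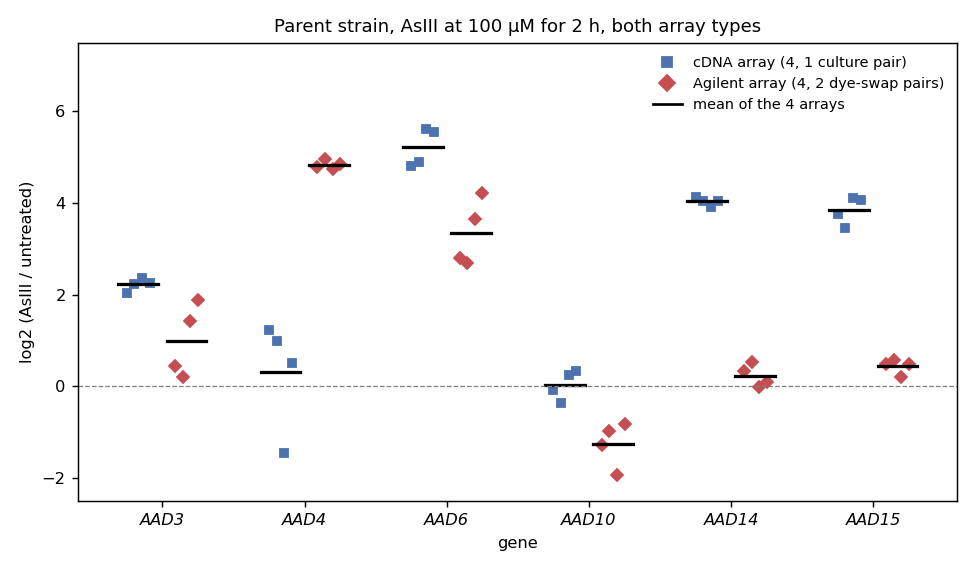
Log2 ratio of AsIII over untreated RNA (y axis) for the 6 AAD genes (x axis) in the parent strain at 100 µM for 2 h, with squares for the 4 cDNA arrays, diamonds for the 4 Agilent arrays and bars for their means. AAD6 is high on both array types, AAD4 only on the Agilent arrays (4.83 against 0.32) and AAD14 and AAD15 only on the cDNA arrays (4.03 and 3.85 against 0.23 and 0.44).

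Several members also read differently with the dye orientation, in opposite senses on the 2 array types. With the numerator RNA in Cy3, AAD3 read 0.99 to 2.89 log2 units higher and AAD6 0.86 to 2.67 higher than with it in Cy5 in each of the 10 Agilent pairs, also in the untreated comparisons. On the cDNA arrays AAD3 and AAD6 read lower with Cy3, in all 5 culture pairs, by 0.17 to 1.04 and by 0.65 to 1.19, while AAD4 read 0.19 to 2.09 higher. AAD4 on the Agilent arrays showed a gap of no more than 0.23 in either direction. Since each pair held both orientations equally, a constant dye effect cancels in its mean, and responses of 2 strains read in the same orientation carry it on both sides.

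In the Yap1-Null strain the rises of AAD4 and AAD6 seen in the parent were not found. Its own deletion was visible, YAP1 lying at -4.35 in the untreated comparison with the parent. With AsIII, AAD4 read -0.35 on both arrays (mean -0.35, SE 0.17, adjusted p = 0.0594), AAD6 read -0.93 and 0.42 (mean -0.26, adjusted p = 0.176) and AAD3 read -0.81 and 0.43 (mean -0.19, adjusted p = 0.332). These lay below each of the parent's arrays read in the same orientation. AAD15 read -0.06 and -0.62 (mean -0.34, adjusted p = 0.0691). None of the 6 members was called higher, where 30.5% of all genes were, and 2 were called lower, where 36.0% were: AAD10, at -2.26 and -2.70 (mean -2.48, SE 0.17, adjusted p = 1.08e-44), and AAD14, at -0.14 and -0.64 (mean -0.39, adjusted p = 0.0342). The count of members called lower was 4 with the array number as a block, through AAD4 (adjusted p = 0.00229) and AAD15 (0.0395), and 1 after median centring, when AAD14 read -0.32 (0.0958).

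The response in Yap1-Null minus that in the parent was negative for all 6 members, and all 6 were called (median -1.20, against 0.07 for all genes), against 7.36% of all genes called lower and 5.39% higher in this contrast. AAD4 differed by -5.18 (SE 0.21, adjusted p = 6.32e-124), a 36.4-fold smaller ratio and the second lowest of 5598 genes. AAD6 differed by -3.60 (SE 0.21, adjusted p = 2.32e-61), 12.1-fold, rank 11 from the lowest. AAD10 differed by -1.22 (adjusted p = 2.43e-07), from a parent value that was already negative, AAD3 by -1.17 (adjusted p = 9.57e-07), AAD15 by -0.78 (adjusted p = 0.00321) and AAD14 by -0.63 (adjusted p = 0.0278). The last 2 sat close to the threshold of the Agilent SD. With each array as a replicate the differences of AAD4, AAD6, AAD10 and AAD15 were called and those of AAD3 (adjusted p = 0.536) and AAD14 (0.116) were not, and with the array number as a block all 6 were. Taking the orientations singly, AAD14 and AAD15 were called in neither (adjusted p = 0.121 and 0.137 for AAD14, 0.0885 and 0.0629 for AAD15) and AAD10 was not called with the numerator in Cy3 alone (0.121).

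In the 3 other deletion strains AAD4 and AAD6 kept a response close to that of the parent when the arrays were not scaled. After scaling to the same spread, AAD4 and AAD6 were higher in Arr1-Null than in the parent with both exposed to AsIII. Under that scaling more members were also called in the difference of response itself, in Rpn4-Null as in Arr1-Null. The closeness in both strains may thus depend on the scaling. AAD4 read 4.79 and 5.02 in Cad1-Null, 4.97 and 5.20 in Rpn4-Null, and 5.05 and 4.99 in Arr1-Null, with means of 4.90, 5.09 and 5.02. Its difference from the parent's response was 0.07 (adjusted p = 0.956), 0.25 (0.346) and 0.19 (0.455), with an SE of 0.21 each. AAD6 had means of 3.24, 3.64 and 3.51 in those strains, and differences of -0.10 (adjusted p = 0.928), 0.30 (0.256) and 0.17 (0.507). The 95% interval of the difference ran from -0.34 to 0.48 for AAD4 in Cad1-Null and from -0.11 to 0.71 for AAD6 in Rpn4-Null, so differences of that size remain possible.

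AAD3 read 0.61 and 2.09 in Cad1-Null (mean 1.35), -0.18 and 1.49 in Rpn4-Null (0.65) and -0.17 and 1.32 in Arr1-Null (0.57). All 3 means were called higher, but the arrays of a pair fell on both sides of 0 in Rpn4-Null and Arr1-Null and none of the 3 was called with each array as a replicate (adjusted p = 0.115, 0.490 and 0.558). The means of AAD15 were 0.59 in Cad1-Null, 0.49 in Rpn4-Null and 0.31 in Arr1-Null, the last not called (adjusted p = 0.121). The means of AAD14 lay between -0.02 and 0.04 in the 3 strains, with its arrays between -0.26 and 0.22, and it was called in none.

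Members called higher thus numbered 4 in Cad1-Null, where 31.9% of all genes were, 5 in Rpn4-Null, where 24.4% were, and 3 in Arr1-Null, where 23.2% were. Members called lower numbered 1, 0 and 1, where 36.0%, 29.9% and 26.9% of all genes were.

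AAD10 was the one member whose response was called different from the parent's in a strain other than Yap1-Null. It read -0.38 and -1.0 in Cad1-Null (mean -0.69), 0.52 and 0.90 in Rpn4-Null (0.71), and -0.70 and -0.27 in Arr1-Null (-0.48), and was thus negative in all strains other than Rpn4-Null. The Rpn4-Null response exceeded that of the parent by 1.97 (SE 0.21, adjusted p = 2.91e-18), the ninth highest of the 5598 differences, and AAD10 was the single member called in that contrast, where 21.3% of genes were called higher and 17.7% lower. Against Arr1-Null the difference was 0.77 (adjusted p = 7.56e-04), again the single member called, where 28.6% of genes were called higher and 25.5% lower. It was 0.42 with parent pair 2 alone and 1.12 with pair 1 alone, and it was not called with each array as a replicate (adjusted p = 0.067). For Cad1-Null no member was called, where 1.75% of genes were called higher and 2.48% lower, and AAD10 differed by 0.56 (adjusted p = 0.119), or by 0.21 with parent pair 2 alone and 0.92 with pair 1 alone. The negative AAD10 value in Arr1-Null was not called with the array number as a block (adjusted p = 0.0868). All 4 of these contrasts share the same parent arrays.

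**Figure D3:**
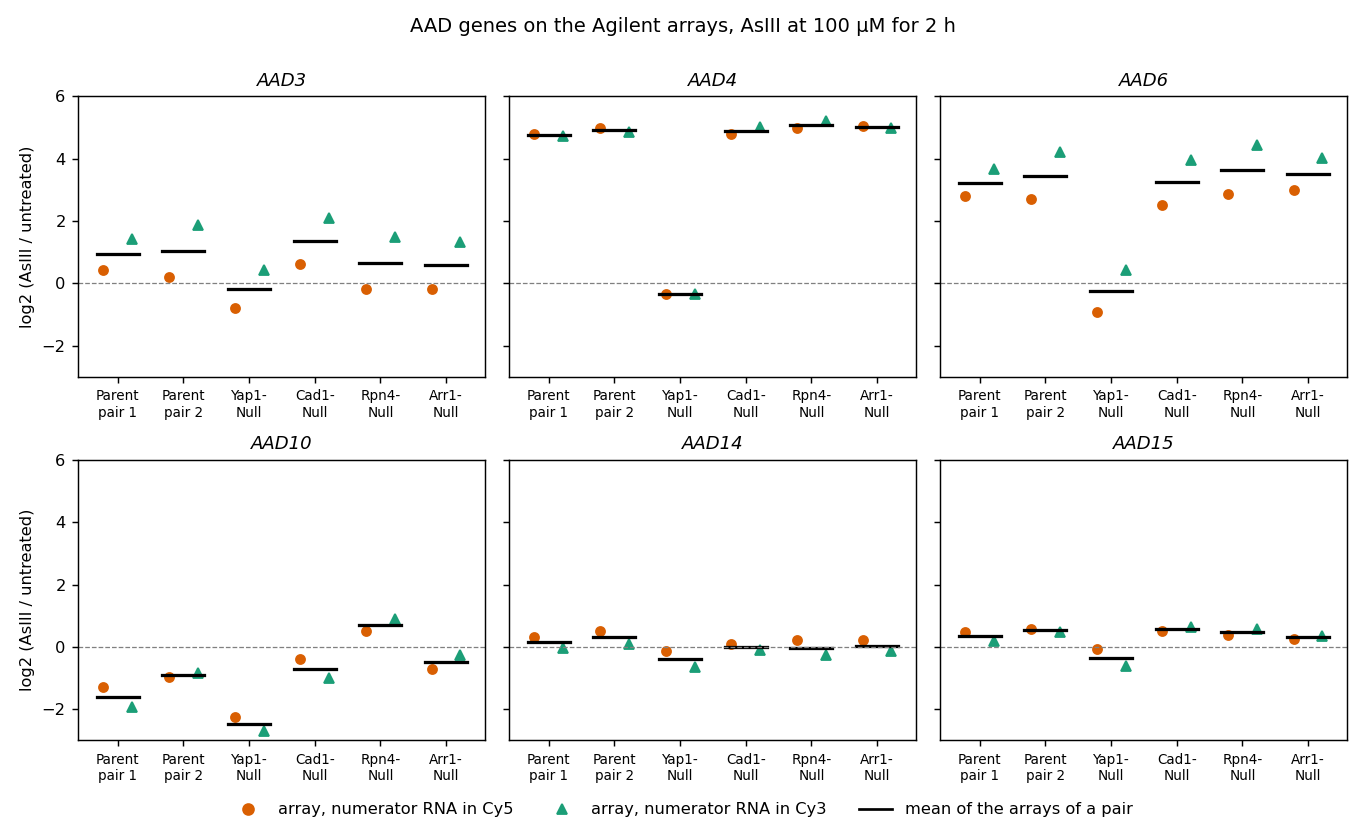
Log2 ratio of AsIII over untreated RNA (y axis) for each AAD gene on each Agilent array, by strain (x axis), at 100 µM for 2 h; circles are arrays with the AsIII RNA in Cy5, triangles those with it in Cy3, and bars the mean of a dye-swap pair. AAD4 and AAD6 are high in every strain but Yap1-Null (means -0.35 and -0.26), AAD10 is positive in Rpn4-Null alone (0.71), and AAD3 and AAD6 read higher with Cy3 in every pair.

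Without AsIII some members were called lower in Rpn4-Null and Arr1-Null, and none was called in Yap1-Null or Cad1-Null. The untreated comparisons of Yap1-Null and Cad1-Null were weak as a whole, with the 2 arrays of a pair correlating at -0.479 and -0.137 over all genes against 0.566 for Rpn4-Null and 0.404 for Arr1-Null; the deleted gene itself was low in each, CAD1 at -4.75, RPN4 at -4.04 and ARR1 at -2.27. In Yap1-Null AAD4 read -0.38 and -0.56 (mean -0.47, SE 0.17, adjusted p = 0.108) and AAD10 read 1.02 and 0.04 (mean 0.53, adjusted p = 0.0523). AAD3, at -1.84 and 1.05, and AAD6, at -1.68 and 0.99, pointed opposite ways on the 2 arrays of that pair, so that no direction can be given for either. No member was called, where 2.59% of genes were called higher and 1.29% lower, with 4 members at an unadjusted p under 0.05; with the array number as a block AAD4 was called (adjusted p = 0.0036). In Cad1-Null AAD4 read -0.07 and -0.06 and no member was called, where 1.71% of genes were called higher and 0.965% lower; AAD10, at 0.57 and 0.51, came closest (adjusted p = 0.0602) and was the single member at an unadjusted p under 0.05.

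In Rpn4-Null AAD4 was lower without AsIII, at -0.81 and -0.72 (mean -0.77, SE 0.17, adjusted p = 1.08e-04), as were AAD15, at -0.50 and -0.69 (mean -0.59, adjusted p = 0.0042), and AAD10, at -0.60 and -0.34 (mean -0.47, adjusted p = 0.032). These were 3 members called lower, against 11% of all genes, and none higher, against 10.9%; the call on AAD10 was lost with the array number as a block (adjusted p = 0.138). In Arr1-Null 2 members were called lower, against 11.5% of genes, namely AAD4, at -0.56 and -0.53 (mean -0.54, adjusted p = 0.0108), and AAD15, at -0.63 and -0.24 (mean -0.44, adjusted p = 0.0473), and none higher, against 11.8%; AAD15 missed the threshold after median centring (0.0541). AAD14 lay between -0.26 and 0.39 on all 8 arrays of the untreated comparisons.

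**Figure D4:**
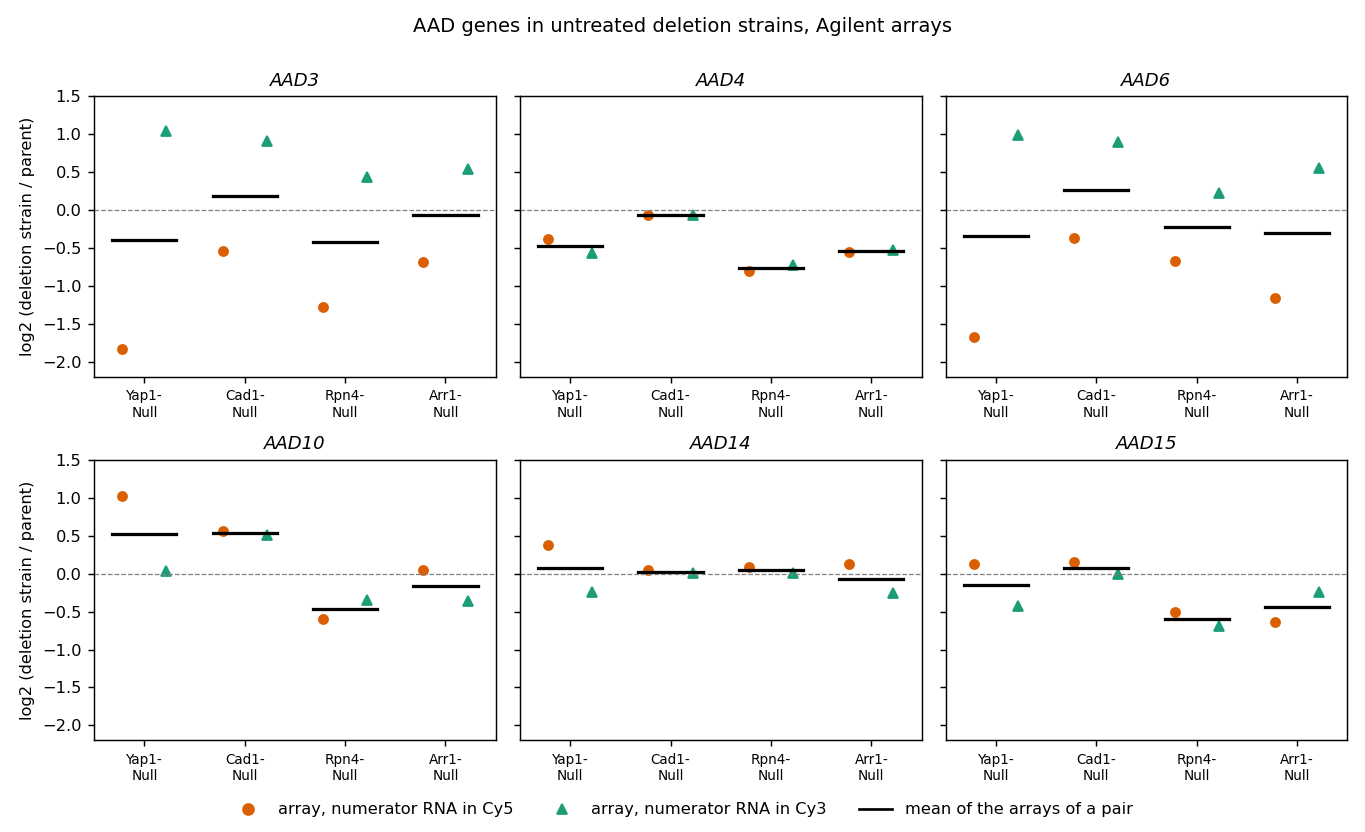
Log2 ratio of an untreated deletion strain over the untreated parent (y axis) for each AAD gene on each Agilent array, by strain (x axis); circles are arrays with the deletion strain in Cy5, triangles those with it in Cy3, and bars the mean of the pair. AAD4 is below 0 on both arrays of every strain, with means of -0.77 in Rpn4-Null, -0.54 in Arr1-Null, -0.47 in Yap1-Null and -0.07 in Cad1-Null. AAD3 and AAD6 fall on opposite sides of 0 on the 2 arrays of every strain.

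Adding the untreated difference to the difference in response gives the deletion strain against the parent with both exposed to AsIII. The sum assumes that untreated cultures of a strain match across arrays. For AAD3 and AAD6 in Yap1-Null it takes in untreated values for which no direction could be given. On that scale AAD4 was -5.66 (SE 0.27, adjusted p = 1.26e-89) and AAD6 -3.95 (adjusted p = 2.48e-44) in Yap1-Null, with AAD3 at -1.57 (4.36e-07) and AAD15 at -0.93 (0.0144), 4 members called lower where 4.77% of all genes were and none higher where 1.46% were. With each array as a replicate AAD4 and AAD6 alone were called, and with the array number as a block AAD14 was called too (log2 ratio -0.55, adjusted p = 0.0385). AAD10 was 1.49 higher in Rpn4-Null (adjusted p = 1.31e-06), 1 member called higher where 13.8% of genes were, and AAD3 was 0.75 lower (log2 ratio -0.75, adjusted p = 0.0275), 1 member called lower where 11.1% of genes were; under the block AAD3 was not called (0.0805) and AAD4 was (log2 ratio -0.51, adjusted p = 0.0104). In Cad1-Null AAD10 was 1.10 higher (adjusted p = 0.00676), 1 member where 0.339% of genes were called higher and 0.607% lower, and this was lost with the array number as a block (0.465). In Arr1-Null no member was called, where 18.5% of genes were called higher and 15.9% lower, with 2 members at an unadjusted p under 0.05; with the array number as a block AAD15 was called there (log2 ratio -0.57, adjusted p = 0.0478).

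Other reductases and dehydrogenases give the setting of these values. Of 9 other aldo-keto reductases, 4 were called higher and none lower at 1 mM on the cDNA arrays, where 9.69% and 7.09% of all genes were (median log2 ratio 0.72), led by YPR1, a reductase of 2-methylbutyraldehyde (1.77, SE 0.22, adjusted p = 0.01), and GRE3, the xylose and methylglyoxal reductase (1.45, SE 0.20, adjusted p = 0.0127). In the parent on the Agilent arrays 3 of the 9 were called higher and 5 lower (median -0.30, against -0.10 for all genes), shares near the 34.7% and 42.7% of all genes called there, with YPR1 at 1.75 (adjusted p = 7.24e-45) and GCY1, a glycerol dehydrogenase, at -2.12 (adjusted p = 8.16e-65). Between Yap1-Null and the parent 3 of the 9 were called lower, YPR1 (-1.68, adjusted p = 9.59e-14), YPR127W (-1.02, 3.18e-05) and the arabinose dehydrogenase gene ARA2 (-0.77, 0.00369), and none higher. Of all genes 7.36% were called lower and 5.39% higher in that contrast. In the Agilent parent the highest ratio on that list was the 1.75 of YPR1, below those of AAD4 (4.83) and AAD6 (3.34).

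Among 13 zinc-containing or related alcohol dehydrogenases, SFA1, which oxidizes the glutathione adduct of formaldehyde, had the highest ratio on both array types, 3.31 at 1 mM on the cDNA arrays (adjusted p = 0.00438) and 2.28 in the parent on the Agilent arrays (adjusted p = 9.29e-75), and its response in Yap1-Null differed by -1.50 (adjusted p = 7.1e-11). In that contrast 4 of the 13 were called higher and 5 lower (median 0.09, range -1.88 to 1.23), where 5.39% and 7.36% of all genes were. In the Agilent parent 7 were called higher and 6 lower, where 34.7% and 42.7% of all genes were. Of 7 genes for the conversion of aromatic amino acids to fusel alcohols, ARO8 to ARO10, their activator ARO80 and the pyruvate decarboxylases, 6 were called lower in the Agilent parent (median -1.87), where 42.7% of all genes were, ARO10, the phenylpyruvate decarboxylase, the lowest at -2.66 (adjusted p = 5.22e-100). PDC6 alone was called higher, at 2.04 (adjusted p = 3.33e-60). Between Yap1-Null and the parent none of these 7 was called lower and 1, PDC1, was called higher, by 0.67 (adjusted p = 0.016), where 7.36% and 5.39% of all genes were.

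Of 22 other genes listed as Yap1 targets, 21 were called with a lower response in Yap1-Null than in the parent, where 7.36% of all genes were called lower. The median difference of the 22 was -2.17, against 0.07 for all genes. LOT6 was lower too but not called (-0.15, adjusted p = 0.734). The list was drawn up with results of these data known, so its count is no independent support. AAD4, at -5.18, was exceeded there by OSI1 alone (-5.66, adjusted p = 3.59e-146), a gene of unknown role, and AAD6, at -3.60, lay beside YLR460C (-3.61) and the transporter gene FLR1 (-3.66). On the cDNA arrays 19 of the 22 were called higher at 1 mM and 18 at 100 µM for 2 h, where 9.69% and 3.75% of all genes were.

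The genes beside the AAD genes were followed as well, since 4 members lie next to copies of the THI5 family (THI5 at AAD6, THI11 at AAD10, THI12 at AAD14 and THI13 at AAD4), near-identical genes of thiamine precursor synthesis whose probes may read one another. In the parent on the Agilent arrays these 4 rose by 2.38 to 2.89, beside AAD4 at 4.83 and AAD6 at 3.34 but also beside AAD14 at 0.23 and AAD10 at -1.26. In Yap1-Null they read -0.03 to 0.44, and their response was 2.07 to 2.91 log2 units below that of the parent. All 4 were called lower in that contrast, where 7.36% of all genes were. RDS1, next to AAD3, read 1.22 in the parent and 0.27 in Yap1-Null (difference -0.94), and AGP3, an amino acid transporter gene next to AAD6, read 1.26 and 0.14 (difference -1.12). YDL241W near AAD4 read 1.84 and 0.72. YJR154W at AAD10 (0.03), the histone deacetylase gene RPD3 at AAD14 (-1.64) and the sulfatase gene BDS1 near AAD15 (-0.48) were not called higher in the parent. The RefSeq table placed no gene with a probe on the outer side of AAD3 and AAD15.

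**Figure D5:**
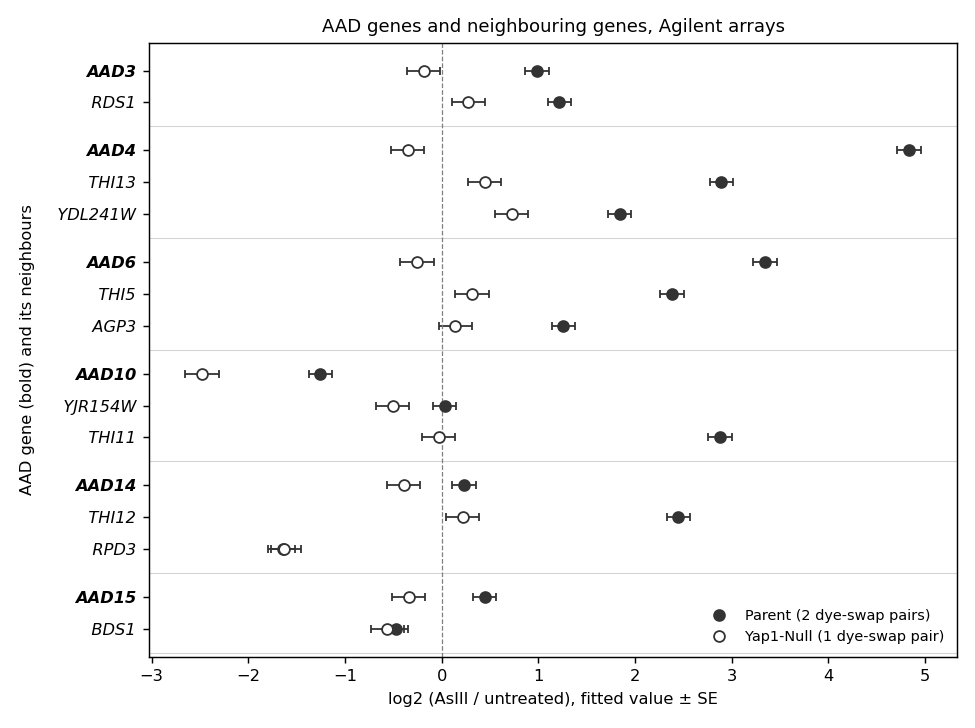
Fitted log2 ratio of AsIII over untreated RNA with its SE (x axis) on the Agilent arrays for the 6 AAD genes (bold) and the nearest genes with probes (y axis), in the parent (filled) and in Yap1-Null (open). The 4 THI genes lie between 2.38 and 2.89 in the parent and near 0 in Yap1-Null whether the AAD gene beside them rose or not.

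How the members varied with one another was described over the 10 Agilent replicates, which share strains and a parent, so no test was made. AAD4 and AAD6 ran nearly in parallel (r = 0.998), AAD3 and AAD15 followed them (r between 0.904 and 0.922 for each pairing among the 4 genes other than that first one), AAD14 correlated with the others at 0.338 to 0.468, and AAD10 lay between -0.137 and 0.338.

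Over the 15 replicates of both platforms, among 5507 other genes, the pattern most like that of AAD6 was that of YML131W (r = 0.973), an oxidoreductase-like gene, followed by the glutathione transferase gene GTT2 (0.957) and YLL056C (0.955). AAD3 was most like APE1, a vacuolar aminopeptidase gene (0.951), ECM31 of pantothenate synthesis (0.931) and the reductase gene GRE2 (0.925). AAD4 was most like YKL070W (0.95), ROX1, a repressor of hypoxic genes (0.925), and RPM2 of mitochondrial RNase P (0.92). For AAD15 these were PBI1 (0.917), APE1 (0.916) and ECM31 (0.916), and for AAD14 DFP2 (0.943), YBR259W (0.933) and the isomaltase gene IMA1 (0.917). AAD10 had a different set, MTD1, a methylenetetrahydrofolate dehydrogenase gene (0.921), the carboxyl methyl esterase gene PPE1 (0.899) and DSE4, a daughter cell glucanase gene (0.899). These likenesses mix array types on which every member read differently, AAD4, AAD14 and AAD15 most of all.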

How the data were processed

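The authors' deposited values were used as they stood: 1 log2 ratio per spot for the 20 cDNA arrays (the log base and normalization are not stated, and log2 was taken from the values) and 1 log10 ratio per feature, limited to a 100-fold change, for the 20 Agilent arrays, per the methods from Feature Extraction and Rosetta Resolver. Agilent ratios were turned to log2. Their sign was already turned so that the numerator is AsIII or the deletion strain. Depth has no meaning for arrays: their number limits the precision.

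Probes of a gene were averaged, arrays of a culture or dye-swap pair were averaged into 1 replicate, and limma 3.58.1 in R 4.3.3 was fitted per platform to 5 cDNA and 10 Agilent replicates (residual degrees of freedom 1 each, prior degrees of freedom 4.28 and infinite, prior SD 0.311 and 0.172). The fit was tested on simulated data with independent replicates and the same spread for every gene. That test could not show whether a common SD suits these genes. The contrast of a deletion strain and the parent both with AsIII adds 3 sets of arrays. Probes with no gene symbol were left out (1143 cDNA, 1605 Agilent). Named genes were the 6 members, the 4 deleted regulators, the 2 to 4 largest of each list, the 3 most alike genes by Pearson correlation, and the nearest genes with probes; LOT6, PDC1, ARA2, YPR127W and the Yap1 targets set beside AAD4 and AAD6 were named after their values were seen. The members and lists were chosen with earlier results of these data known. Same-numbered Agilent arrays deviated together (all 72 pairs above r = 0.1, lowest 0.622), the number there being the dye orientation (parent arrays 3 and 4 were blocked with 1 and 2), so blocked values stand beside results they change; among cDNA arrays 38 of 40 pairs did (lowest -0.138), so these numbers were not taken to pair arrays.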

Additional observations from a re-analysis of the deposited data

Results flagged for a closer look

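The AsIII response differed between a deletion strain and the parent, by a test of the difference itself (limma, adjusted p under 0.05), for all 6 members in Yap1-Null: AAD4 by -5.18, AAD6 by -3.60, AAD10 by -1.22, AAD3 by -1.17, AAD15 by -0.78 and AAD14 by -0.63 on the log2 scale, where 12.8% of all genes were called in either direction. AAD3 and AAD14 were not called with each array as a replicate (adjusted p = 0.536 and 0.116). AAD10 was the single member whose response differed in Rpn4-Null, by 1.97, and in Arr1-Null, by 0.77, where 39% and 54.1% of all genes were called, and the Arr1-Null difference was not called with each array as a replicate (adjusted p = 0.067). In all, 42 such differences of members between strains, doses or times were tested. No array stood apart from its group by Dixon's test in the 30 groups of 4 or 8 arrays examined, where chance flags about 1 in 20.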

How the results depend on the processing

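Of the 49 calls on members, all 49 were also made with robust moderation and with the median of probes, 47 after median centring, 44 after scaling the arrays to the same spread (MAD), 34 with each array as a replicate and 45 when the array number was added to that as a replicate block. With each array as a replicate the number of members called in either direction went from 0 to 4 at 100 µM 30 min, from 0 to 4 at 4 h, from 0 to 3 for 2 h minus 30 min, from 0 to 4 for 4 h minus 2 h and from 0 to 4 for 1 mM minus 100 µM. On the Agilent arrays the same setting gave 1 in place of 0 for untreated Yap1-Null, 2 in place of 4 for Yap1-Null and parent both with AsIII, 0 in place of 1 for Cad1-Null likewise, 2 in place of 4 for AsIII in Arr1-Null, 0 in place of 1 for Arr1-Null minus parent and 1 in place of 2 for untreated Arr1-Null.

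With the array number as a block, the counts were 4, 5, 4, 5 and 4 in place of 0 in those 5 cDNA comparisons, 4 in place of 2 for AsIII in Yap1-Null, 1 in place of 0 for untreated Yap1-Null, 0 in place of 1 for Cad1-Null and parent both with AsIII, and 1 in place of 0 for Arr1-Null likewise. Single calls that the block changed on the Agilent arrays stand in the report, and on those arrays it changed no other call of a member. Scaling to the same MAD gave 0 in place of 4 at 100 µM 2 h on the cDNA arrays, 1 in place of 2 for AsIII in Yap1-Null, 3 in place of 1 for Rpn4-Null minus parent and for Arr1-Null minus parent, 2 in place of 0 for untreated Yap1-Null, 3 in place of 0 for untreated Cad1-Null and 5 in place of 3 for untreated Rpn4-Null. For both strains with AsIII it gave 2 in place of 1 in Cad1-Null, 4 in place of 2 in Rpn4-Null and 3 in place of 0 in Arr1-Null, where AAD4 (0.91) and AAD6 (0.82) changed sign. Median centring gave 1 in place of 2 for AsIII in Yap1-Null and for untreated Arr1-Null, 1 in place of 0 for untreated Yap1-Null and 2 in place of 1 for Arr1-Null minus parent. Robust moderation gave 4 in place of 2 for AsIII in Yap1-Null, 2 in place of 0 for untreated Yap1-Null, 1 in place of 0 for Cad1-Null minus parent and for untreated Cad1-Null, 2 in place of 1 for Arr1-Null minus parent and 2 in place of 0 for Arr1-Null and parent both with AsIII.

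With only the arrays that had the numerator in Cy5, the counts were 3 in place of 0 for untreated Yap1-Null, 5 in place of 3 for untreated Rpn4-Null, 4 in place of 2 for untreated Arr1-Null, 0 in place of 1 for Arr1-Null minus parent and for Cad1-Null and parent both with AsIII, and 3 in place of 0 for Arr1-Null likewise, and AAD3 changed sign with AsIII in Rpn4-Null (-0.18) and Arr1-Null (-0.17). With Cy3 alone they were 3 in place of 6 for Yap1-Null minus parent, 2 in place of 0 for untreated Yap1-Null, where AAD3 (1.05) and AAD6 (0.99) changed sign, 1 in place of 3 for untreated Rpn4-Null, 0 in place of 2 for untreated Arr1-Null, 0 in place of 1 for Arr1-Null minus parent and for Cad1-Null and parent both with AsIII, and 0 in place of 2 for Rpn4-Null likewise, where AAD3 changed sign (0.27). Calling genes at p under 0.001 without adjustment and at least 2-fold gave 1 in place of 0 at 100 µM 30 min, 3 in place of 5 for AsIII in the parent and in Cad1-Null, 1 in place of 2 in Yap1-Null, 2 in place of 5 in Rpn4-Null, 2 in place of 4 in Arr1-Null, 1 in place of 2 for Rpn4-Null and parent both with AsIII, and 0 in place of 3, 2 and 1 for untreated Rpn4-Null, untreated Arr1-Null and Arr1-Null minus parent. Values outside the 95% range of each cDNA array gave 4 in place of 0 at 100 µM 30 min and 3 in place of 0 at 4 h. The causes were not tested. Leaving out a culture pair at 1 mM or a parent pair left no residual degree of freedom, so only values were computed.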
